A study of Mus musculus with 12 samples.

Results

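Dnmt3b, Dnmt3l, Uhrf1 and Hells encode proteins that place methyl groups on cytosine in DNA or help others to place them. These genes were chosen by symbol, and 4 probe sets of the 10360 in the deposited table carried those symbols, 1 for each gene. All 4 genes were among the 9539 tested. They were followed across 4 groups of mouse cells, with 3 arrays in each group. Fibroblasts were at passage 3. Their strain is given as OG2-GFP/Rosa26-M2rtTA on replicate 1, OG2-GFP/Rosa26-M3rtTA on replicate 2 and OG2-GFP/Rosa26-M4rtTA on replicate 3, and whether these running numbers mark different lines or a labelling slip is unknown. Day-1 cells were passage 3 fibroblasts of strain OG2-GFP/Rosa26-M2rtTA, taken from OT-iPSC mice (OT stands for Oct4 and Tet1) and kept in ES medium with doxycycline for 1 day. In this strain the drug-dependent activator rtTA comes from the Rosa26 locus, which is active in most cell types, and doxycycline switches on the Oct4 and Tet1 transgenes. The iPS cells were 1 line made with Oct4 and Tet1, at passage 10, of strain OG2-GFP/Rosa26-M2rtTA. The ES cells were the established R1 line at passage 20, of strain 129. Both pluripotent lines grew on mitomycin C-treated feeder fibroblasts, and a step to remove feeders is stated for the ES cells alone. The medium of the fibroblasts is not stated, day-1 cells differ from them in doxycycline and source, and iPS cells from ES cells in strain, passage and line. The labels do not state whether replicate arrays are separate cultures, and the p-values then measure no more than the spread of these samples, which may be technical.

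Methylation of cytosine is set up and kept by different machinery. DNMT3B is an enzyme that methylates DNA without a template, mainly in early development, and DNMT3L has no enzyme activity of its own but binds and stimulates the DNMT3 enzymes in germ cells and pluripotent cells. UHRF1 recognises half-methylated DNA behind the replication fork and brings in the maintenance enzyme DNMT1, and HELLS is a chromatin remodeller that opens packed DNA to the methylation machinery. Uhrf1 and Hells are also well-known S-phase genes, and mouse pluripotent cells spend much of their cycle in S phase.

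The induced factors and the markers were read first. Pou5f1, which encodes Oct4, had a log2 signal of 5.04 ± 0.18 (SD, n = 3) in fibroblasts and 11.79 ± 0.06 in day-1 cells. Tet1, the other induced factor, had 6.68 ± 0.17 and 7.46 ± 0.02. It was 1.72-fold higher in day-1 cells (log2 difference 0.79 ± 0.09, SE; limma adjusted p = 8.4e-06), and was not called because this is under the 2-fold minimum. Array medians lay between 7.89 and 8.29, and arrays of a group correlated across genes with r of 0.988 to 0.997. The mean of 12 pluripotency markers was 5.20 to 5.49 on the fibroblast and day-1 arrays and 11.08 to 11.48 on the iPS and ES arrays. The mean of 15 fibroblast markers was 11.20 to 11.44 in the fibroblast group and 10.95 to 11.04 in the day-1 group. It was lower on iPS arrays, at 9.03 to 9.12, and on ES arrays, at 7.83 to 8.34. The markers were split in iPS cells, where 8 of the 15 were called lower than in fibroblasts, beside 29.6% of all genes. The other 7 were not called, among them Col1a1 (log2 difference 0.26) and Col1a2 (0.19), while Dcn differed by -5.62. In ES cells 14 of the 15 were called lower, beside 32.1% of all genes. For 7 macrophage markers the mean was 7.19 to 7.79 on fibroblast and day-1 arrays and 6.24 to 6.48 on the others. These markers went both ways. Against fibroblasts 4 were called lower in each pluripotent line, beside 29.6% and 32.1% of all genes. Laptm5 was called higher there, by 2.61 in iPS cells and 2.53 in ES cells. At day 1, 3 were called lower, beside 4.33% of all genes, and 1, C1qb, higher, by 1.48. The mean of 5 germ cell markers was 4.12 to 4.22 on fibroblast and day-1 arrays, 6.48 to 6.58 on iPS arrays and 7.09 to 7.67 on ES arrays. In RNA from whole cultures, fewer cells expressing a gene and less of its RNA per cell cannot be told apart. The number of arrays limits the precision.

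The members were low in fibroblasts and high in both pluripotent lines, and they parted at day 1. Uhrf1 was higher in day-1 cells than in fibroblasts. Hells was above fibroblasts and Dnmt3l below them, each with an estimate under 2-fold, and Dnmt3b values overlapped those of fibroblasts. In both groups the means of Dnmt3b and Dnmt3l were as low as those of some pluripotency markers. A gene was called when the adjusted p of limma, a linear model fitted across all genes, was under 0.05 and the log2 difference at least 1, which is 2-fold. In the counts of genes below, rose and fell mean called higher and called lower by this rule. In day-1 cells against fibroblasts 1 of the 4 members was called, higher, against 3.46% of all genes called higher. With the adjusted p alone, 3 of the 4 passed, against 57.1% of all genes. In iPS cells and in ES cells against fibroblasts all 4 were called higher, against 21.8% and 23.4% of all genes. The median difference of the 4 was 4.05 in iPS cells and 4.42 in ES cells, where all genes had a median of -0.35 in each comparison. Between iPS and ES cells 0 of 4 were called by limma, against 6.9% of all genes, 4.44% higher and 2.45% lower. With the adjusted p alone 1 passed, Dnmt3b, against 57.7% of all genes. At an unadjusted p under 0.05 there were 2, Dnmt3b and Hells, where at least the same 57.7% of all genes pass.

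**Figure D1:**
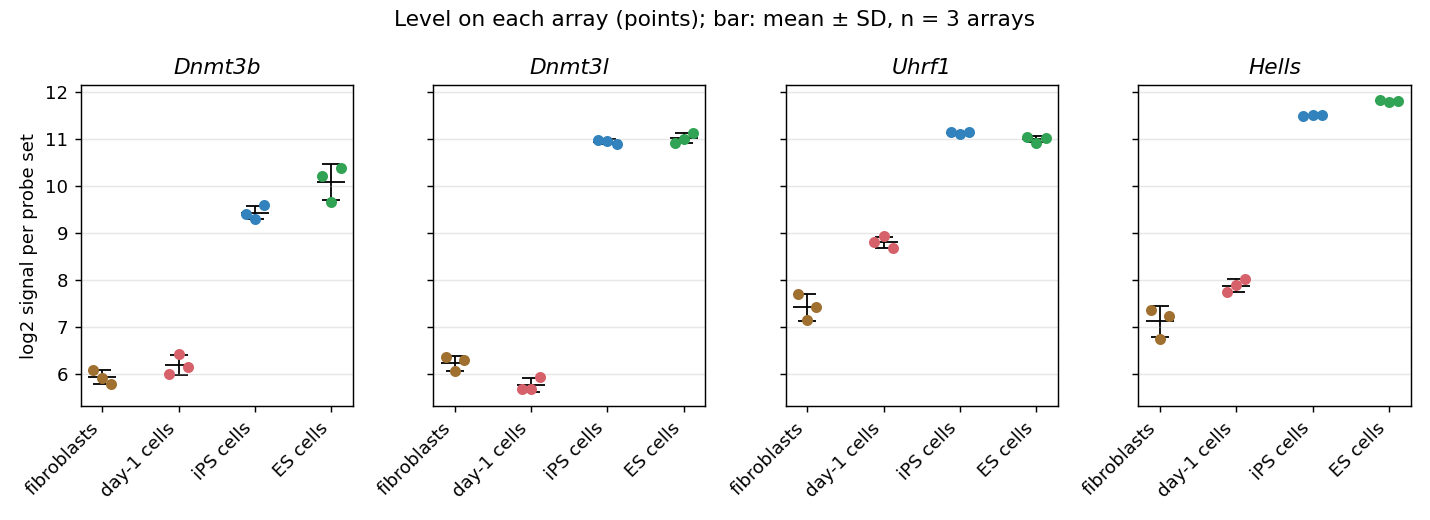
Log2 signal of Dnmt3b, Dnmt3l, Uhrf1 and Hells on each of the 12 arrays, by group, with black bars for the mean ± SD of 3 arrays. For every gene the iPS and ES arrays lie above all fibroblast and day-1 arrays, and on the Uhrf1 panel the day-1 arrays, at 8.68 to 8.92, stand between these levels.

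Dnmt3b encodes the enzyme of the set. Its log2 signal on the 3 fibroblast arrays was 6.08, 5.91 and 5.78, and on the day-1 arrays it was 5.99, 6.41 and 6.15. The iPS arrays gave 9.40, 9.29 and 9.58, and the ES arrays 10.20, 9.66 and 10.38. Fibroblast and day-1 values overlapped, the iPS values were all higher than those, and the ES values were all above the iPS values, with ES replicate 2 close to them. Dnmt3b was 11.3-fold higher in iPS cells than in fibroblasts (log2 difference 3.50 ± 0.17, SE; limma adjusted p = 2.2e-10) and 17.8-fold higher in ES cells (4.15 ± 0.17; adjusted p = 3.2e-11). Day-1 cells differed from fibroblasts by 0.26 ± 0.17 (adjusted p = 0.20), with a 95% interval of -0.10 to 0.62. This gene had the widest gap of the 4 between the pluripotent lines. It was 1.57-fold lower in iPS than in ES cells (-0.65 ± 0.17; adjusted p = 0.0047), which stayed under the 2-fold minimum. Without ES replicate 2 that difference was -0.86, and without ES replicate 3 it was -0.50.

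Dnmt3l, the partner of the DNMT3 enzymes, had the largest difference of the 4 between each pluripotent line and fibroblasts. Fibroblast arrays read 6.35, 6.04 and 6.28, and day-1 arrays 5.68, 5.67 and 5.93. The iPS arrays read 10.98, 10.94 and 10.88, and the ES arrays 10.91, 10.99 and 11.13. All day-1 values lay below all fibroblast values, while iPS and ES values overlapped. The gene was 26.1-fold higher in iPS cells than in fibroblasts (4.71 ± 0.10; limma adjusted p = 2.8e-13) and 27.6-fold higher in ES cells (4.79 ± 0.10; adjusted p = 1.4e-13). At day 1 it differed from fibroblasts by -0.46 ± 0.10 (adjusted p = 0.0014), under the fold minimum. Dnmt3l was the only member whose day-1 and later differences had opposite signs. Its signal was low in both groups. The means of Dnmt3l (6.22 and 5.76) and Dnmt3b (5.92 and 6.18) in fibroblasts and day-1 cells lay among those of the 12 pluripotency markers. These ran from 3.72 to 6.54 and from 3.98 to 6.72. How far signals this low reflect RNA is unknown, which limits the day-1 difference and the fold values over these groups. Against day-1 cells it was 36.0-fold higher in iPS cells (5.17 ± 0.10), which ranked 21 among the 9539 genes. Between iPS and ES cells it differed by -0.08 ± 0.10 (adjusted p = 0.52), and the 95% interval ran from -0.29 to 0.13.

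The promoters of these members differ in sequence. All 4 genes matched the RefSeq promoter table of build GRCm38.p6, with 7 windows of 250 bases before an annotated start. Each window was searched on both strands for E2F-type sites, spelled TTTCCCGC, TTTCGCGC, TTTGCCGC or TTTGGCGC, and for the CCAAT box, CCAAT. E2F factors drive many S-phase genes. The E2F letters were found in 1 window of Uhrf1 and in that of Hells, and in 0 windows of Dnmt3b or Dnmt3l. Of all 32851 windows of this length 1.86% held them, and 33.8% held CCAAT. Of the S-phase list described further on, 32 had a window and 8 of those held the E2F letters, against 3.66% of the genes tested that had one. The octamer ATGCAAAT, which Oct4 can bind, was in 0 of the 7 windows and in 1.6% of all windows, and the cell cycle element TTTGAA was in the Dnmt3b window and in 5252 of the 32851. These matches describe letters only and show no binding. The windows of Uhrf1 and Hells are shown for the E2F letters, and the first of 3 Dnmt3l windows as one without them, 5′ to 3′, with E2F and CCAAT letters in capitals. The E2F match begins 185 bases before the start in Uhrf1 and 62 bases before it in Hells.
Uhrf1, chr17:56304063-56304312, + strand: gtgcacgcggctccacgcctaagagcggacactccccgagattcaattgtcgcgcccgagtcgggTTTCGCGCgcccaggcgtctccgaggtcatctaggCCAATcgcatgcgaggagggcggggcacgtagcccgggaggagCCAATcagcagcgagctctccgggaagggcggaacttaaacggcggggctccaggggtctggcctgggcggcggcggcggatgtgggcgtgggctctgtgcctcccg
Hells, chr19:38930740-38930989, + strand: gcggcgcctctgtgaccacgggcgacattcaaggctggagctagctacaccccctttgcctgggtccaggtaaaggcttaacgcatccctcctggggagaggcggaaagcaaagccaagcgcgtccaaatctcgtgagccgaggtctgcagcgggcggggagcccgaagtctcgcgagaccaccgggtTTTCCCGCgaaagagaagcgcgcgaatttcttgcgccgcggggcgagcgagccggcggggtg
Dnmt3l, chr10:78042037-78042286, + strand: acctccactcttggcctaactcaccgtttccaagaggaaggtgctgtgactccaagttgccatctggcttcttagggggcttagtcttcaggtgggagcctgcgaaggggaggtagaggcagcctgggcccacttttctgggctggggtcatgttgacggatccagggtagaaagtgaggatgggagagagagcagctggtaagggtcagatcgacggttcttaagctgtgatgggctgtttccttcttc

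CpG is the pair of bases that carries methylation. The printed Uhrf1 and Hells windows hold 30 and 28 CpG pairs, and 94.1% and 92.4% of all windows hold fewer. The other Uhrf1 window, with no E2F letters, holds 10, and 62.2% of windows hold fewer. The Dnmt3b window holds 21, and 83.7% of windows hold fewer. The 3 Dnmt3l windows hold 5, 4 and 3, of which the first is printed, where the median of all windows is 6. Methylation itself was not measured here.

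Uhrf1, the reader of half-methylated DNA, was the member called at day 1, by the rule above. Its signal on the fibroblast arrays was 7.70, 7.13 and 7.41, and on the day-1 arrays 8.79, 8.92 and 8.68. The iPS arrays gave 11.13, 11.10 and 11.14, and the ES arrays 11.03, 10.91 and 11.01. The groups did not overlap, and iPS cells had the highest values. Uhrf1 was 2.61-fold higher in day-1 cells than in fibroblasts (1.38 ± 0.12; limma adjusted p = 7.0e-07), with a 95% interval of 2.19 to 3.11-fold. With limma's treat, which tests whether a difference exceeds 2-fold, this call was lost (adjusted p = 0.090). It was 13.1-fold higher in iPS cells (3.71 ± 0.12) and 11.9-fold higher in ES cells (3.57 ± 0.12) than in fibroblasts. From day-1 cells the remaining step was the smallest of the members, 5.02-fold to iPS cells and 4.55-fold to ES cells. The iPS and ES lines differed by 0.14 ± 0.12 (adjusted p = 0.32), with an interval of -0.11 to 0.39. Without fibroblast replicate 2, the lowest array for this gene, the day-1 difference was 1.24.

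Hells, the remodeller, had a small day-1 difference and a large one in the pluripotent lines. Its signal was 7.36, 6.73 and 7.23 on the fibroblast arrays and 7.73, 7.88 and 8.0 on the day-1 arrays. It reached 11.47, 11.51 and 11.49 on the iPS arrays, and 11.83, 11.78 and 11.79 on the ES arrays. The 4 groups did not overlap and stood in the order fibroblasts, day-1, iPS and ES cells. Hells was 20.8-fold higher in iPS cells than in fibroblasts (4.38 ± 0.13; limma adjusted p = 3.7e-12) and 25.8-fold higher in ES cells (4.69 ± 0.13; adjusted p = 1.3e-12). The day-1 difference was 1.70-fold (0.76 ± 0.13; adjusted p = 2.8e-04), under the fold minimum, and 0.57 without fibroblast replicate 2. Between iPS and ES cells the difference of -0.31 ± 0.13 had an adjusted p of 0.058. That p ranged from 0.0053 to 0.12 over the other settings apart from limma's treat, and lay on both sides of 0.05, while the difference stayed under 2-fold in every setting.

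**Figure D2:**
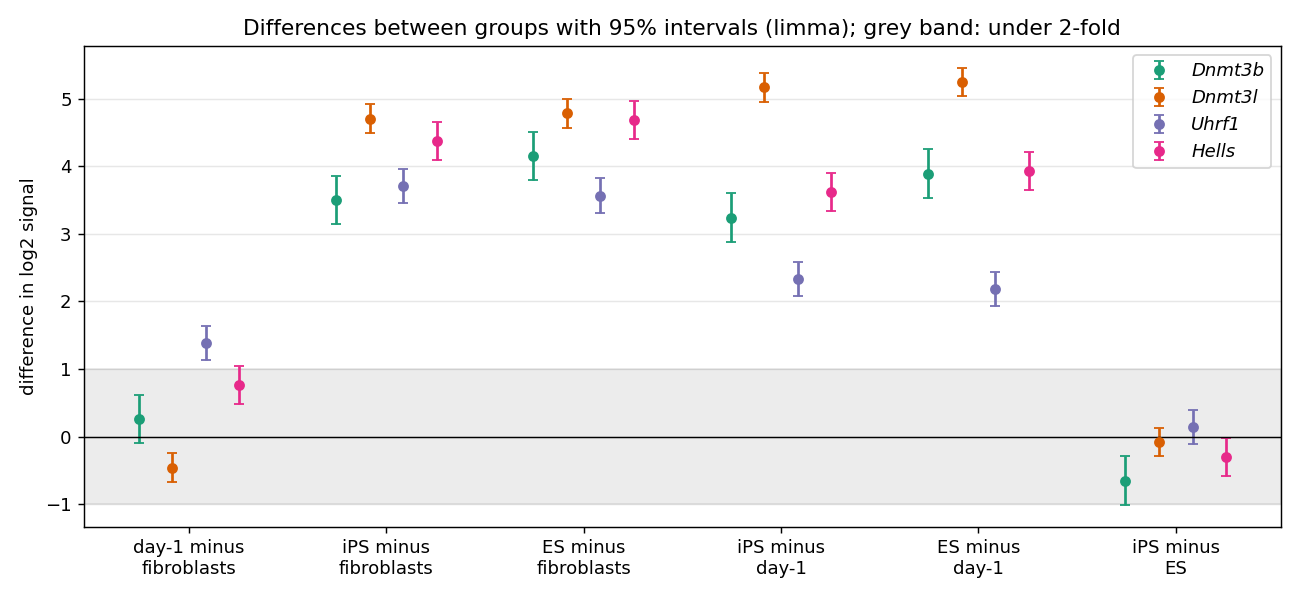
Differences in log2 signal for the 4 members in the 6 comparisons, with points for limma estimates, bars for 95% intervals and a grey band for differences under 2-fold. Uhrf1 is the single point above the band in day-1 cells, at 1.38, all points of the 4 comparisons of pluripotent with other cells lie between 2.19 and 5.25, and all 4 estimates of iPS minus ES cells lie within the band.

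Across the groups, the order of mean levels was the same for Dnmt3b and Hells, with fibroblasts lowest and ES cells highest. By the adjusted p alone, the step from fibroblasts to day-1 cells did not pass for Dnmt3b, and the step from iPS to ES cells did not pass for Hells. For Uhrf1 and Dnmt3l the difference between the pluripotent lines did not pass either, and for Dnmt3l the lowest mean was that of day-1 cells. The day-1 step of Hells and the iPS to ES step of Dnmt3b passed, as 57.1% and 57.7% of all genes did. Both were under 2-fold, so neither was called. With each gene centred on its own mean over the 12 arrays, the closest pair of members was Dnmt3b and Hells, with a root mean square difference of 0.39 on the log2 scale. The farthest pair was Dnmt3l and Uhrf1, at 1.22.

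The genes with the nearest profiles by this measure differed from member to member. Nearest to Uhrf1 were the centromere gene Cenph (0.17), the replication gene Gins1 (0.18) and the replicative helicase gene Mcm3 (0.18). Nearest to Hells were the kinase gene Rps6ka6 (0.15), Rif1, which times the firing of replication origins (0.17), and Zfp979 (0.22). Nearest to Dnmt3l were Rimklb (0.20), the Notch pathway factor gene Rbpj (0.21) and the epithelial cadherin gene Cdh1 (0.22). Nearest to Dnmt3b were Zfp459 (0.21), Rragb, a GTPase of amino acid sensing (0.22), and Cecr2 (0.24), a chromatin remodelling factor. The nearest gene to each member lay closer to it than any other member did.

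Uhrf1 and Hells were set beside a list of 44 S-phase genes that leaves both out, of which 41 were measured. In day-1 cells all 41 had positive differences from fibroblasts, and 20 of them were called higher, where 3.46% of all genes were. The called genes were led by the helicase gene Mcm5 (1.74 ± 0.09), the chromatin assembly gene Chaf1b (1.69 ± 0.09) and Cdca7 (1.63 ± 0.15), whose product works with HELLS. The list median at day 1 was 0.98, where all genes had 0.05. Uhrf1 was above 36 of the 41 list genes, and Hells was above 11. In iPS cells 37 of the 41 rose over fibroblasts, where 21.8% of all genes did, with a median of 2.45, led by Mcm3 (3.98 ± 0.12) and the histone chaperone gene Nasp (3.69 ± 0.09). There Uhrf1 was above 40 and Hells above all 41. In ES cells 37 rose as well, where 23.4% of all genes did, with a median of 2.40, and the members were above 37 and 41 of the list genes. From day-1 to iPS cells 25 of the 41 rose, where 17.6% of all genes did, with a median of 1.30. Hells differed there by 3.62 ± 0.13, above all 41, where the highest list gene was Wdr76 at 2.65 ± 0.15.

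The members were also set against the list mean within each array. The signal of Hells minus the list mean was -0.46 ± 0.22 (SD, n = 3) in fibroblasts and -0.68 ± 0.12 in day-1 cells, against 1.65 ± 0.03 in the iPS line and 1.78 ± 0.05 in the ES line. The fibroblast and day-1 values overlapped, and both lay below all pluripotent values. For Uhrf1 the values were -0.15 ± 0.15, 0.24 ± 0.12, 1.28 ± 0.01 and 0.97 ± 0.06, with no overlap between groups. The offset between probe sets has no meaning of its own, so only its shift between groups is read. The shift from day-1 to iPS cells was 2.33 for Hells and 1.04 for Uhrf1, each with a two-sided exact permutation p of 0.10, the smallest that 3 arrays against 3 allow. With 12 such tests, the adjusted p was 0.11. The day-1 shift of Hells against fibroblasts, -0.23, had an exact permutation p of 0.30. The list median was positive beside Uhrf1 and Hells in each comparison with fibroblasts, and the part of S-phase signal in their differences was not tested. Between iPS and ES cells the list had a median of -0.16 and 1 called gene, E2f8 (-1.34 ± 0.09).

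**Figure D3:**
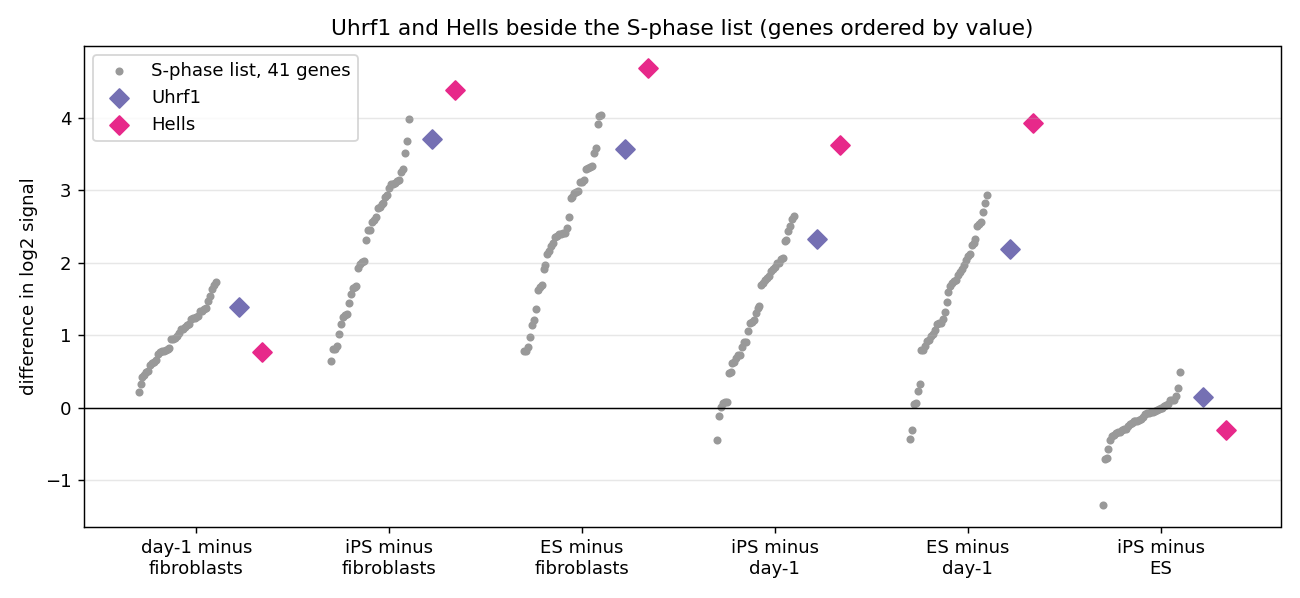
Differences in log2 signal of the 41 measured S-phase list genes (grey, ordered by value within a comparison) and of Uhrf1 and Hells (diamonds) in the 6 comparisons. In day-1 cells Uhrf1, at 1.38, sits near the top of the list and Hells, at 0.76, in its lower part, while in the 4 comparisons of pluripotent with other cells Hells lies above every list gene.

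The other genes of the pathway were counted from a list of 61 genes, of which 48 were measured, 44 of them without the members. Among these 44, 9 rose and 1 fell in day-1 cells against fibroblasts, where 3.46% of all genes rose and 4.33% fell. Against fibroblasts 26 rose and 4 fell in iPS cells, and 28 rose and 5 fell in ES cells. Of all genes 21.8% and 23.4% rose in these lines, and 29.6% and 32.1% fell. The medians of the 44 were 0.36, 1.33 and 1.65, where all genes had 0.05, -0.35 and -0.35. Genes on this list that are also on the S-phase list are Pcna, Ung and Cdca7.

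The genes of the other DNA methyltransferases had smaller differences between each pluripotent line and fibroblasts than Dnmt3b. The maintenance enzyme gene Dnmt1 rose by 1.43 ± 0.09 in the iPS line and 1.79 ± 0.09 in the ES line. For Dnmt3a these differences were 1.46 ± 0.09 and 2.42 ± 0.09. At day 1 Dnmt1 differed by 0.82 ± 0.09 and Dnmt3a by 0.08 ± 0.09, and neither was called. All 4 writers had negative differences between iPS and ES cells, and 0 were called by limma, against 6.9% of all genes. At an unadjusted p under 0.05 there were 3, where at least 57.7% of all genes pass. The largest difference was that of Dnmt3a (-0.96 ± 0.09; limma adjusted p = 2.6e-06). At day 1 all 7 other maintenance cofactors had positive differences, and 5 of them were called higher, where 3.46% of all genes were. The 5 were Cdca7, Pclaf (1.41 ± 0.09), the sliding clamp gene Pcna (1.15 ± 0.10), the DNA ligase gene Lig1 (1.14 ± 0.11) and Cdca7l (1.11 ± 0.10). In iPS cells 5 of the 7 rose, led by Cdca7 (3.52 ± 0.15) and Lig1 (3.37 ± 0.11), and in ES cells 6 of 7. Of all genes 21.8% rose in iPS cells and 23.4% in ES cells. At day 1, 0 of the 4 writers were called by limma. With the adjusted p alone 2 passed, Dnmt1 (adjusted p = 1.0e-05) and Dnmt3l, against 57.1% of all genes. With treat, 2 genes of the whole list stayed called at day 1, and the share of all genes with treat is not given here.

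Among 11 measured genes of demethylation and its repair, 7 rose in iPS cells and 1 fell, where 21.8% of all genes rose and 29.6% fell. Tet1 rose by 3.58 ± 0.09, the repair genes Parp1 by 3.37 ± 0.06 and Ung by 3.09 ± 0.12, and Apex1 by 2.20 ± 0.08, while Tet3 fell by 1.45 ± 0.13. In ES cells, where 23.4% of all genes rose and 32.1% fell, 7 rose and 2 fell, the latter being Gadd45g (-2.17 ± 0.10) and Tet3. At day 1, where 3.46% of all genes rose and 4.33% fell, 1 of the 11 rose, Neil3 (1.02 ± 0.11), and 1 fell, Gadd45a (-1.17 ± 0.13). Of 6 measured genes listed as readers of methylated DNA, 0 rose and 3 fell in each pluripotent line against fibroblasts. Of all genes 29.6% fell in iPS cells and 32.1% in ES cells, so this count of 3 in 6 is little above the background. They were Zbtb4 (-1.60 ± 0.11 in iPS cells and -1.68 ± 0.11 in ES cells), Zbtb38 (-1.28 ± 0.12 and -2.04 ± 0.12) and Mbd2 (-1.19 ± 0.09 and -1.08 ± 0.09).

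Of 11 genes whose products direct or guard methylation, 7 rose in iPS cells and 8 in ES cells, beside 21.8% and 23.4% of all genes. The histone methyltransferase gene Suv39h2 differed by 2.73 ± 0.07 and 2.98 ± 0.07, and Prdm14, which is known to repress Dnmt3b and Dnmt3l in pluripotent cells, by 2.67 ± 0.14 and 2.09 ± 0.14. Trim28 differed by 2.18 ± 0.07 and 2.50 ± 0.07, and its DNA-binding partner of imprinted regions, Zfp57, by 1.79 ± 0.09 and 2.27 ± 0.09. Of 7 genes that supply methyl groups, 5 rose in each line against the same background, with the folate enzyme genes Shmt1 (3.17 ± 0.09 in iPS cells) and Mthfd1 (2.61 ± 0.07) at the top. At day 1 the targeting gene called was Suv39h2 (1.24 ± 0.07), and the methyl donor genes called were Mthfd1 (1.13 ± 0.07) and Mthfd2 (1.12 ± 0.08).

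**Figure D4:**
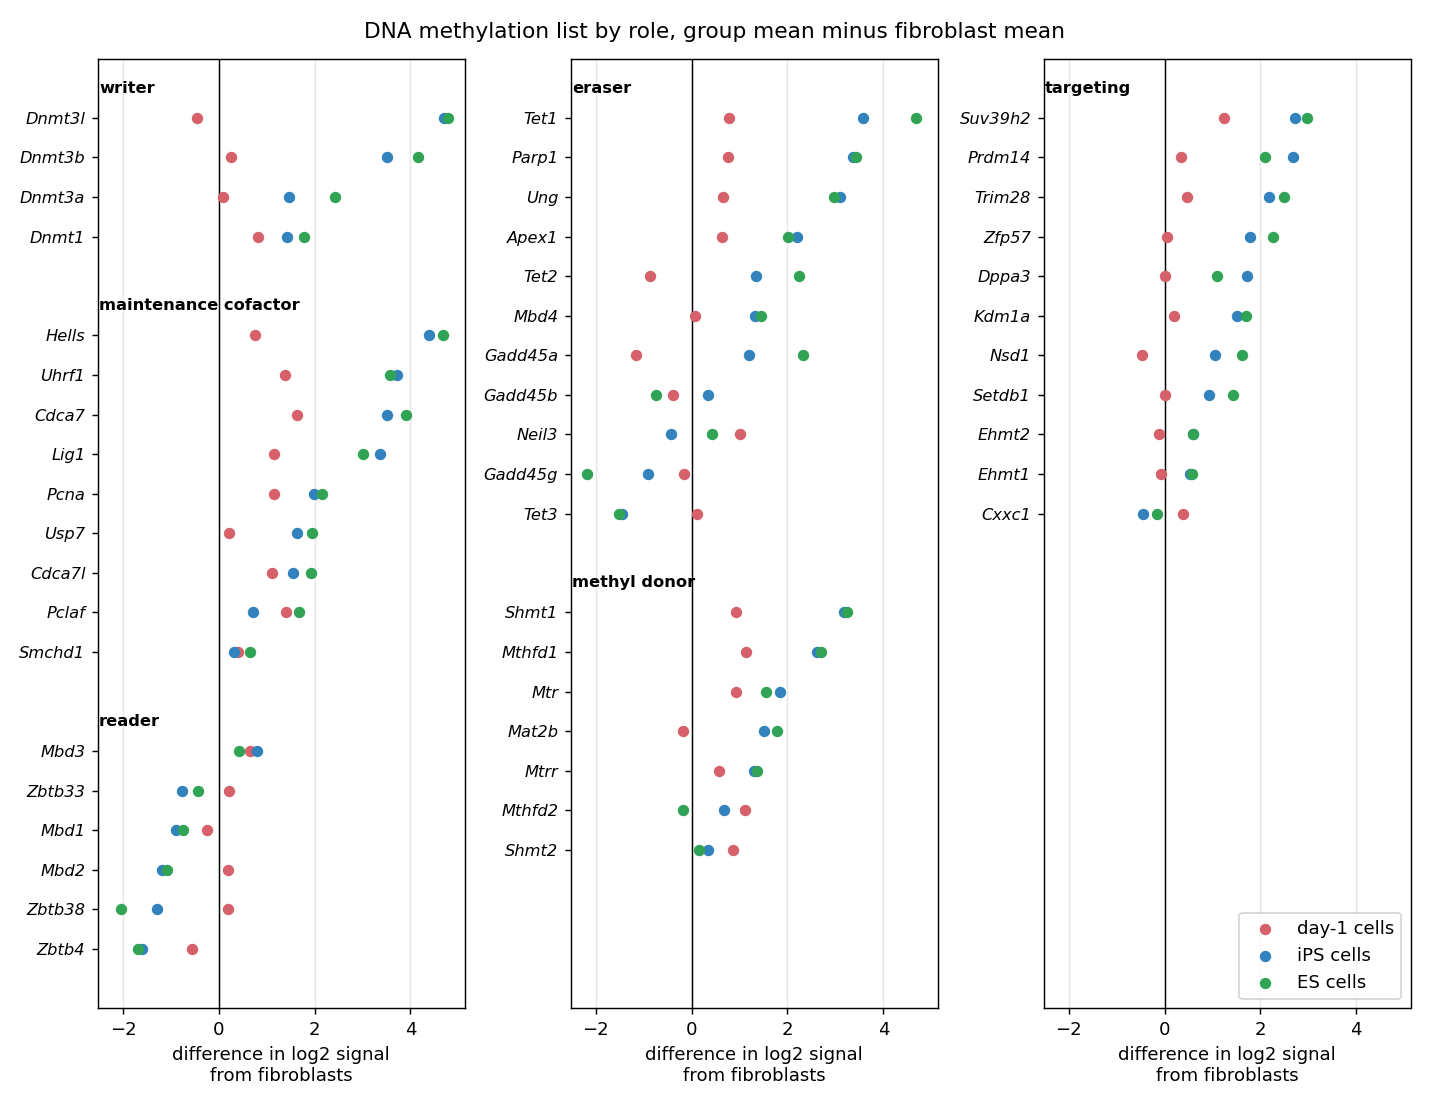
Differences in log2 signal from fibroblasts for the 48 measured genes of the DNA methylation list, by role, in day-1 cells (red), iPS cells (blue) and ES cells (green), each from the group mean of 3 arrays. Dnmt3l, Dnmt3b, Hells and Uhrf1 lead the writers and the maintenance cofactors in iPS cells, at 4.71, 3.50, 4.38 and 3.71, while in ES cells Cdca7, at 3.91, lies above Uhrf1, at 3.57, and Zbtb4, Zbtb38 and Mbd2 lie to the left of 0 in both pluripotent lines.

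Fibroblast markers differed between the pluripotent lines, where 0 of the 4 members were called. Of all genes 4.44% were higher in iPS than in ES cells and 2.45% lower. Of the 15 markers, 7 were higher in iPS than in ES cells and 1, Dcn, was lower. Collagen genes Col1a1 (2.42 ± 0.15) and Col1a2 (2.60 ± 0.12) and Lox (3.03 ± 0.27) were among the higher ones, while the fibroblast factor gene Twist2 differed by -0.01 ± 0.10. Over the marker list the array means were 9.03 to 9.12 in iPS cells, and 7.83, 8.34 and 7.87 on the 3 ES arrays. ES replicate 2, the ES array lowest for Dnmt3b, was the highest ES array for 12 of the 15 markers, among them Lox (9.06 against 7.63 and 7.73) and Acta2 (10.22 against 9.10 and 9.26). The part of these markers in the lower Dnmt3b signal of iPS cells was not tested, and without ES replicate 2 that difference was -0.86. Of the 48 methylation list genes 4 were called between the lines, a share near the 6.9% of all genes. They were Tet1 (-1.11 ± 0.09) and Gadd45a (-1.14 ± 0.13), lower in iPS cells, and Gadd45g (1.26 ± 0.10) and Gadd45b (1.09 ± 0.17), higher.

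In both pluripotent lines all 4 members were also called higher than in day-1 cells, against 17.6% and 20.4% of all genes. Dnmt3b was 9.46-fold higher in iPS cells than in day-1 cells (3.24 ± 0.17; limma adjusted p = 6.1e-10) and 14.9-fold higher in ES cells. Hells was 12.3-fold and 15.2-fold higher. These comparisons share the iPS or ES arrays with those against fibroblasts. Pou5f1 itself differed by 0.21 ± 0.08 between iPS and day-1 cells and was not called, while its difference between day-1 cells and fibroblasts was 6.76 ± 0.08. On those day-1 arrays Uhrf1 differed from fibroblasts by 1.38 ± 0.12, Hells by 0.76 ± 0.13, Dnmt3b by 0.26 ± 0.17 and Dnmt3l by -0.46 ± 0.10. A link between Pou5f1 and these differences was not tested.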

How the data were processed

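Gene expression was measured on 12 arrays. Total RNA taken with Trizol was labelled with Affymetrix's WT Terminal kit, per the labels' protocols. The authors deposited 1 log2 value per probe set and array. The log2 scale was read from the range, 2.43 to 13.64, while summarisation, normalization and probe-set selection are not given in the sources used here. Every probe set varies by at least 0.51 between arrays, so shares of genes refer to genes that vary. Platform annotation gave 1 symbol to 9542 probe sets, several to 344 and none to 474. The brightest probe set of a gene was kept, leaving 9539 genes.

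Group means over all 12 arrays were fitted with limma 3.58.1 in R 4.3.3, with Benjamini-Hochberg adjustment over all genes, and every adjusted p comes from it unless a permutation test is named. Intervals are 95%. Members, lists and tests were chosen with earlier results of these data known, and are not independent of them. Named genes are the members, Pou5f1, Tet1, up to 4 called genes by size per list role, up to 3 of the S-phase list, the 3 nearest profiles and called exceptions, of which the text prints part. Marker genes are given by list and by example, chosen after their values were seen. Alternatives were quantile normalization, centred arrays, no dimmest 25% of genes, a fit of the compared groups alone, a trended robust prior, a replicate block, no fold minimum, treat, averaged probe sets and each array left out. Steps were tested on simulated data. Plots used Python 3.11.15 and matplotlib 3.10.9.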

Additional observations from a re-analysis of the deposited data

How the results depend on the processing

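The 4 members kept their direction in all 6 comparisons and under each of the 15 alternatives run per comparison. Their log2 difference in iPS cells against fibroblasts ranged from 3.42 to 3.75 for Dnmt3b, 4.62 to 4.95 for Dnmt3l, 3.57 to 3.95 for Uhrf1 and 4.19 to 4.62 for Hells, with centred arrays included. Calls depended on the fold rule. Without a fold minimum, 3 members were called at day 1 and 1, Dnmt3b, between iPS and ES cells. With limma's treat against 2-fold, 0 members were called at day 1, with Uhrf1 at an adjusted p of 0.090. Of the methylation list, 11 genes were called at day 1, 30 from day-1 to iPS cells and 4 between iPS and ES cells. These counts were 33, 46 and 30 without a fold minimum, and at day 1 and between the lines they were 2 and 0 with treat. In these 8 cases the rule itself is the cause. Without a fold minimum 57.1% of all genes passed at day 1 and 57.7% between the lines. The share of all genes is not given here for day-1 to iPS cells without a fold minimum, or for treat. With each array left out in turn, the members' counts did not change, and the list count ranged from 10 to 11 at day 1 and from 3 to 6 between the lines, with 6 without ES replicate 2 or iPS replicate 3. The replicate numbers did not pair the arrays, as same-numbered arrays had deviations correlated at -0.21 to 0.06 and 1 of 12 arrays correlated best with its own number. With the number as a replicate block, Uhrf1 at day 1 had an adjusted p of 3.7e-06 and no member's call changed.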

Other observations

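Fibroblast replicate 2 had the lowest signal of its group for Dnmt3l, Uhrf1 and Hells. It was also the lowest fibroblast array for 26 of the 41 S-phase genes, or 63.4%, while 37.4% of all 9539 genes were lowest there. The mean of the S-phase list was 7.72, 7.44 and 7.53 on the 3 fibroblast arrays and lay between 8.54 and 8.56 on the day-1 arrays.

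ES replicate 2 was the lowest ES array for Dnmt3b, Uhrf1 and Hells. It was the lowest for 43.9% of S-phase genes and for 30.0% of all genes, and the highest ES array for 12 of the 15 fibroblast markers.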
